A study of Mus musculus with 74 samples.

Results

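The expression of 9 genes tied to the resting state of T cells was followed in mouse CD4+ T cells from before activation to 120 h after it. The genes were *Klf2*, *Klf3* and *Klf6*, which encode zinc finger transcription factors of the Krüppel-like family, *Foxo1*, which encodes a forkhead transcription factor, and *S1pr1*, *Txnip*, *Pik3ip1*, *Btg1* and *Btg2*, which lie downstream of these factors or act beside them. They were chosen by name, with earlier results of these data known, and each was read by the probe with that gene symbol that had the highest mean log2 intensity over all 74 arrays. Together the 9 genes had 13 of the 45135 probes, and 8 of the 9 were among the 13817 genes that passed a filter on dim probes and were tested. The ninth, *S1pr1*, stayed at the level of dim probes in every array.

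Naive CD4+ CD62L-high cells came from pooled spleen and lymph node of Balb/c mice aged 5 to 8 weeks. Every culture received plate-bound anti-CD3 and soluble anti-CD28. The resting cells (Tnaiv, 0 h) were compared with 4 cultures: Th0 cells, in which antibodies blocked IFN-γ, IL-4 and IL-12; Th1 cells, given IL-12 with anti-IL-4; Th2 cells, given IL-4 with antibodies to IL-12 and IFN-γ; and the hybrid ThMix cells, given IL-12 and IL-4 together. Each culture was measured at 3, 6, 12, 24, 35, 48, 73, 96 and 120 h, which with 0 h made 37 conditions of 2 arrays each, 1 from each of 2 independent experiments. Time points from 73 h on came after all cultures had been divided and moved to a new plate. At these times, an effect of time cannot be told apart from one of that move. Pooled cells stand behind each array. For each gene, p-values rest on the gap between the 2 experiments averaged over all 37 conditions, not on that of the conditions compared. The main fit treats the arrays of 1 experiment as independent. All 4 cultures share the same 2 naive arrays, so their comparisons with 0 h are not separate observations.

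A naive T cell is kept small, recirculating and out of cell cycle by an active program. FOXO1 is held in the nucleus while the PI3K and AKT pathway is quiet, where it drives *Klf2* and *Il7r*, and KLF2 in turn drives *S1pr1*, whose product lets T cells leave lymph nodes. Signals through the T-cell receptor and CD28 switch on PI3K and AKT, which send FOXO1 out of the nucleus and shut this program off. *Pik3ip1* encodes an inhibitor of PI3K, *Txnip* encodes a thioredoxin-binding arrestin that limits glucose uptake, and *Btg1* and *Btg2* encode antiproliferative proteins that recruit the CCR4-NOT complex to shorten mRNA tails.

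The 250 bases before the start of each gene were read from RefSeq promoters (GRCm38.p6), in which 8 of the 9 genes were found and *S1pr1* was not. They were searched on both strands for GTAAACA (the FOXO core), CACCC (the KLF box), CACGTG (the E-box) and TGACG (the CRE core). The sequences below belong to the 3 genes that fell most and to *Btg1*, which like *Txnip* held the FOXO core, with every match in capitals. They run 5′ to 3′ on the strand of the gene and lie at chr8:72318812-72319061 (*Klf2*), chr3:96557707-96557956 (*Txnip*), chr11:3330481-3330730 (*Pik3ip1*) and chr10:96616751-96617000 (*Btg1*), all on the plus strand.
Klf2: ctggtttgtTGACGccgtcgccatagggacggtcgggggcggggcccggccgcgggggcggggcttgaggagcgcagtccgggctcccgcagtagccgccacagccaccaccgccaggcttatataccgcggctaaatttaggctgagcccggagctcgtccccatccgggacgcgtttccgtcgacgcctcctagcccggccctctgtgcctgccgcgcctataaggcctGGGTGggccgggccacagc
Txnip: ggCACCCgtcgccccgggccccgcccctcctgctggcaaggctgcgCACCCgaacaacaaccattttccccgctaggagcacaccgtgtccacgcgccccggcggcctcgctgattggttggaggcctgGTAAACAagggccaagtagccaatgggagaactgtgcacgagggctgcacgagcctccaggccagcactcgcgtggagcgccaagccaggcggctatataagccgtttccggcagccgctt
Pik3ip1: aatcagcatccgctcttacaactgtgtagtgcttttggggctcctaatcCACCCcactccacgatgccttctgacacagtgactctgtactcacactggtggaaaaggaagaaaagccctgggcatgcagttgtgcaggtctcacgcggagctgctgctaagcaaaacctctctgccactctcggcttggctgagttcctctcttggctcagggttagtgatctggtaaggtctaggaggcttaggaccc
Btg1: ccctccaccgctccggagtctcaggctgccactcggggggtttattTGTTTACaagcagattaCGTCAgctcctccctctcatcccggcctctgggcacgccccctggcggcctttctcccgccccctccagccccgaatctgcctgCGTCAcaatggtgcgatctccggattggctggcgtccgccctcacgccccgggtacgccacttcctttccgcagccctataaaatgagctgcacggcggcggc
*Txnip* and *Btg1* held the FOXO core, at 121 bases before the start in *Txnip* and, on the other strand, at 204 bases in *Btg1*. It was found in 3.16% of 32817 promoters of the same length. The KLF box, present in 52% of all promoters, lay in those of *Klf2*, *Klf3*, *Txnip* and *Pik3ip1*. The CRE core, in 17.7% of promoters, was found in *Klf2*, *Btg1* and *Btg2*, where a pair of sites overlapped, and the E-box, in 6.02%, was found in *Klf6*. None of the 4 motifs occurred in the *Foxo1* window. A match is a run of letters and not a site shown to be bound.

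Of the 7 CD4+ T-cell markers on the array, 7 exceeded 6.77, the log2 median over every probe and array, in both naive arrays, with *Cd3e* at 14.71 and 14.52. Among markers of other cells, *Cd8a*, the NK cell receptor gene *Ncr1* and the myeloid gene *Itgam* lay under the median in every array, while *Cd8b1* was at 12.39 and 11.65 in naive cells. NK cell markers were above the median in both naive arrays for 2 of 3, and their summed log2 level was 10.37 and 10.41 there, above the range of 8.13 to 9.78 in the arrays after activation. B cell markers (2 of 2, 9.55 to 10.13 against 7.92 to 10.45) and dendritic cell markers (1 of 3, 8.30 to 8.38 against 8.23 to 8.47) overlapped. The red cell gene *Hba-a1* was at 11.58 and 12.21 in naive cells and at a median of 7.61 after activation, and the myeloid gene *Lyz2* was at 9.49 and 10.01 and then at 6.38. The lists of macrophage and monocyte and of red cell markers had 4 of 5 and 2 of 2 members above the median in both naive arrays. Their summed log2 levels overlapped between the naive arrays (10.39 to 11.10 and 11.63 to 12.26) and the later ones (8.72 to 11.15 and 7.36 to 12.29), and the part of these markers in the falls from 0 h was not tested.

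The 2 naive arrays differed strongly for several of the 9 genes, and this touches each comparison with 0 h. *Klf6* was at 12.78 in experiment 1 and 14.90 in experiment 2, the 22nd largest gap of the 13817 genes. *Klf2* was at 13.80 and 14.90, and thus also higher in experiment 2. *Klf3* was at 10.43 and 8.83, *Pik3ip1* at 11.81 and 10.85, and *Foxo1* at 12.08 and 11.32, all 3 higher in experiment 1. *Txnip* (14.93 and 15.11) and *Btg1* (15.01 and 15.44) differed less. In all, 192 genes differed at least 2-fold between the naive arrays, against 10 to 413 in the later conditions. Of 11 immediate early genes, a list chosen after the naive arrays were seen, 9 were higher in experiment 2 and 6 at least 2-fold, with a median difference of 1.36 against -0.0038 over all genes. The AP-1 gene *Fos* was at 11.14 and 13.87, and the early activation marker *Cd69* at 13.04 and 14.41. Others of these genes were lower in experiment 2, *Egr2* at 10.07 and 9.69 and *Nr4a1*, at the level of dim probes, at 6.29 and 6.23. The activation markers *Il2ra* (9.19 and 8.84) and *Myc* (8.55 and 8.19) were also lower there. Whether the naive cells of the experiments differed in activation was not tested. Comparisons that start from 24 h or later take no level from these arrays. The naive arrays still enter the estimate of the spread that all conditions share.

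**Figure D1:**
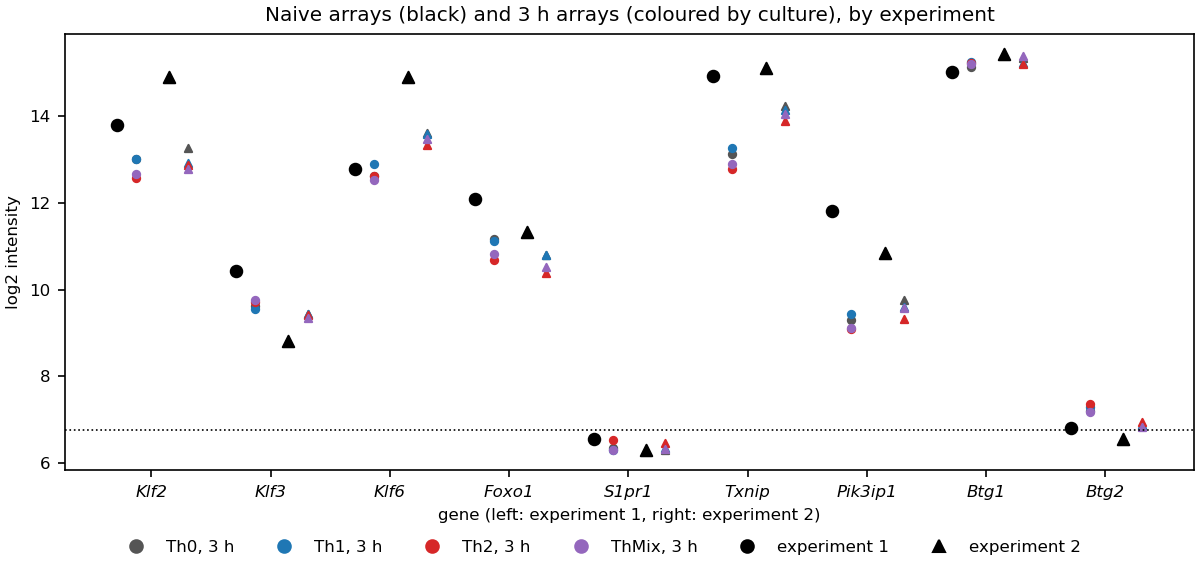
Log2 intensity (y axis) of the 9 genes in the naive arrays (black) and in the 4 cultures at 3 h (coloured), with experiment 1 left (circles) and experiment 2 right (triangles) of each gene; the dotted line is the median of all values, 6.77. *Klf6* was at 12.78 and 14.90 in the naive arrays, while the 8 arrays at 3 h lay between 12.53 and 13.62.

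In the first 3 h, *Klf2*, *Txnip* and *Pik3ip1* had already fallen in all 4 cultures. A gene was called lower where the adjusted p of limma was under 0.05 and the change at least 2-fold. This held for 3 of the 8 genes in Th0 and Th1 cells (4.28% and 4.76% of all genes tested) and for 4 in Th2 and ThMix cells (5.68% and 5.32%). *Pik3ip1* changed most: the 8 arrays at 3 h lay between 9.08 and 9.75, below both naive arrays, and the fall was -1.80 (SE 0.33, n = 2) in Th0 cells and -2.13 (SE 0.33) in Th2 cells. *Klf2* lay between 12.57 and 13.27 at 3 h, also below both naive arrays, a difference of -1.21 (Th0) to -1.62 (Th2). *Foxo1* was the additional gene in Th2 (-1.17, adjusted p = 0.000227) and ThMix cells (-1.03, adjusted p = 0.00104). Its change was -0.71 in Th0 and -0.75 in Th1 cells, short of 2-fold.

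*Txnip* at 3 h followed the experiment more than the culture, with a mean over the cultures of 13.02 in experiment 1 and 14.09 in experiment 2. Its loss by 3 h was -1.66 to -2.14 in the former and -0.87 to -1.22 in the latter. The calls at 3 h rested on single naive arrays in part: without the naive array of experiment 2, *Klf2* was not called in Th0 (-0.66, adjusted p = 0.198) or Th1 (-0.84, adjusted p = 0.0838), and *Txnip* was not called in Th0 (adjusted p = 0.133), Th1 (0.139) or ThMix cells (0.0658). *Txnip* was called in no culture once that culture's experiment 1 was left out (-0.78 to -1.12, adjusted p from 0.201 to 0.392), nor in Th0 and Th1 cells without the naive array of experiment 1 (adjusted p = 0.078 and 0.081). *Klf2* in Th0 cells was also lost without the Th0 arrays of experiment 1 (-1.08, adjusted p = 0.0547). *Foxo1* was no longer called without the naive array of experiment 1 in Th2 (-0.79) and ThMix cells (-0.65), nor without experiment 2 in ThMix cells (-0.89), whereas without the naive array of experiment 2 it passed 2-fold in Th0 (-1.09) and Th1 cells (-1.13) as well. *Klf6* stood at -0.59 to -0.85 at 3 h and was not called (adjusted p of at least 0.288), but was called in Th0, Th2 and ThMix cells without the naive array of experiment 1 (-1.77 to -1.91). The calls of *Pik3ip1* held in every culture under every alternative. *Btg1* stayed within 0.07 of its naive mean at 3 h in the 4 cultures, and the experiments gave 0.13 to 0.25 and -0.23 to -0.05. For *Klf3* the mean change was within 0.14, but the experiments moved in opposite directions, by -0.89 to -0.67 in experiment 1 and by 0.52 to 0.61 in experiment 2, so the mean hid the gap between the naive arrays. *Btg2* moved the other way, at 6.84 to 7.37 against 6.81 and 6.56 in naive cells. It was higher by 0.40 in Th1 (adjusted p = 0.0299) and 0.47 in Th2 cells (adjusted p = 0.00826), under 2-fold. Its naive mean, 6.69, was itself under the median of all values, 6.77. *Btg2* passed the filter on dim probes mainly through its 3 h means (7.01 to 7.15). The 6 h mean of Th0 cells (6.78) was the other one above that median. Since the filter chose *Btg2* for the level tested here, these p-values cannot decide whether it rose. From 12 h on *Btg2* lay between 6.18 and 6.70, at the level of dim probes.

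The mean of 24 and 35 h was taken as the low point, although single genes were lowest between 6 and 73 h. There, in each culture, 7 of the 8 genes were called lower than at 0 h, against 9.05% of all genes in Th0, 9.04% in Th1, 8.81% in Th2 and 9.45% in ThMix cells. The mean fall over the 4 cultures had a median of -2.22 over the 8 genes and 0.04 over all genes. Each array measured many cells together, so fewer cells holding an mRNA and less of it per cell cannot be told apart. The values are also relative to the rest of each array, so they do not give copies per cell.

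*Klf2* had the deepest mean fall in Th0, Th1 and ThMix cells, though in ThMix cells of experiment 2 *Txnip* fell more (-6.42 against -6.31). *Klf2* went from 13.80 and 14.90 in the naive arrays to between 7.97 and 9.11 at 35 h, its lowest point in all 4 cultures. The median over the 8 arrays at 35 h was 8.29. No array from 24 to 48 h reached 10, whereas all naive and 3 h arrays were above 12.5. The fall to the mean of 24 and 35 h was -5.43 in Th0, -5.98 in Th1, -4.90 in Th2 and -5.87 in ThMix cells (SE 0.27 each, n = 2 arrays per condition), or 29.8-fold to 63.2-fold, with adjusted p between 5.58e-22 and 4.01e-19. Within experiment 1 it was -4.41 to -5.42, and within experiment 2 -5.38 to -6.59.

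*Txnip* went from 14.93 and 15.11 to between 8.36 and 10.18 at 24 h. The fall was -4.89 in Th0 and -4.91 in Th1 cells, and -5.79 in Th2 and -5.74 in ThMix cells (SE 0.41), the deepest of the 8 genes in Th2 cells. *Pik3ip1* changed by -4.38 to -4.52 (SE 0.29) and reached 6.51 to 6.93 at 24 h. These arrays spanned the median of all values, so the depth of its fall was limited by the dim end of the scale. Differences between the cultures in this fall could not be read for the same reason.

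*Klf3*, *Klf6*, *Foxo1* and *Btg1* fell less. *Klf3* changed by -1.60 (Th2) to -2.46 (Th1), with the lowest mean at 48 h in each culture and 6.85 to 7.75 in the arrays there. The fall was -2.60 to -3.40 in experiment 1 and -0.60 to -1.51 in experiment 2, without overlap. *Klf6* was lowest at 24 h, between 10.47 and 11.88, and had already risen to between 11.11 and 12.99 at 35 h. Its fall was -2.29 in Th0, -1.90 in Th1, -2.80 in Th2 and -2.51 in ThMix cells (SE 0.48), and the experiments gave -1.05 to -1.59 and -2.76 to -4.00, which did not overlap. *Foxo1* changed by -1.61 to -1.93 (SE 0.22). *Btg1* changed by -1.68 to -1.90 (SE 0.18), to between 13.26 and 13.67 over 24 and 35 h, far above the median of all values. *Foxo1* was lowest already at 6 h in Th2 and ThMix cells (means of 9.77 and 9.76), while its lowest means in Th0 and Th1 cells were at 24 h (9.84 and 9.68). *Btg2* changed by -0.27 to -0.41, short of 2-fold in every culture.

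The smaller falls depended on the naive arrays. Without that of experiment 2, *Klf6* was no longer called in Th0 (-1.23, adjusted p = 0.0862) and Th1 cells (-0.84, adjusted p = 0.262), and without that of experiment 1, *Klf3* was no longer called in Th2 cells (-0.80, adjusted p = 0.0643). *Klf6* in Th1 cells was also lost with 35 h alone as the low point (-1.14, adjusted p = 0.0967). With 3 h of the same culture in place of 0 h, a reference chosen after the naive arrays were seen, 7 genes were called lower in Th0 and Th1 cells and 6 in Th2 and ThMix cells, where *Foxo1* changed by -0.44 and -0.68. *Klf2* then changed by -3.27 to -4.60, *Txnip* by -3.55 to -4.20 and *Pik3ip1* by -2.25 to -2.62, each called in all 4 cultures.

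Second probes bore on the size of these falls. For *Foxo1* the dimmer probe, at 10.25 and 10.40 in the naive arrays, changed by -2.88 to -3.19, more than the probe used, and by 0.73 to 1.07 in the recovery. The second *Txnip* probe changed by -5.05 to -5.87 and that of *Btg1* by -1.91 to -2.14, both somewhat more than the first in each culture. That of *Klf6*, at 8.04 and 11.33 in the naive arrays, changed by -1.37 to -2.09, less than the first. *S1pr1*, which encodes the receptor for lymph node exit, had 1 probe, at 6.55 and 6.30 in the naive arrays and between 6.12 and 6.64 after activation. It lay under the median of all values in all 74 arrays, so no change could be read from it.

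**Figure D2:**
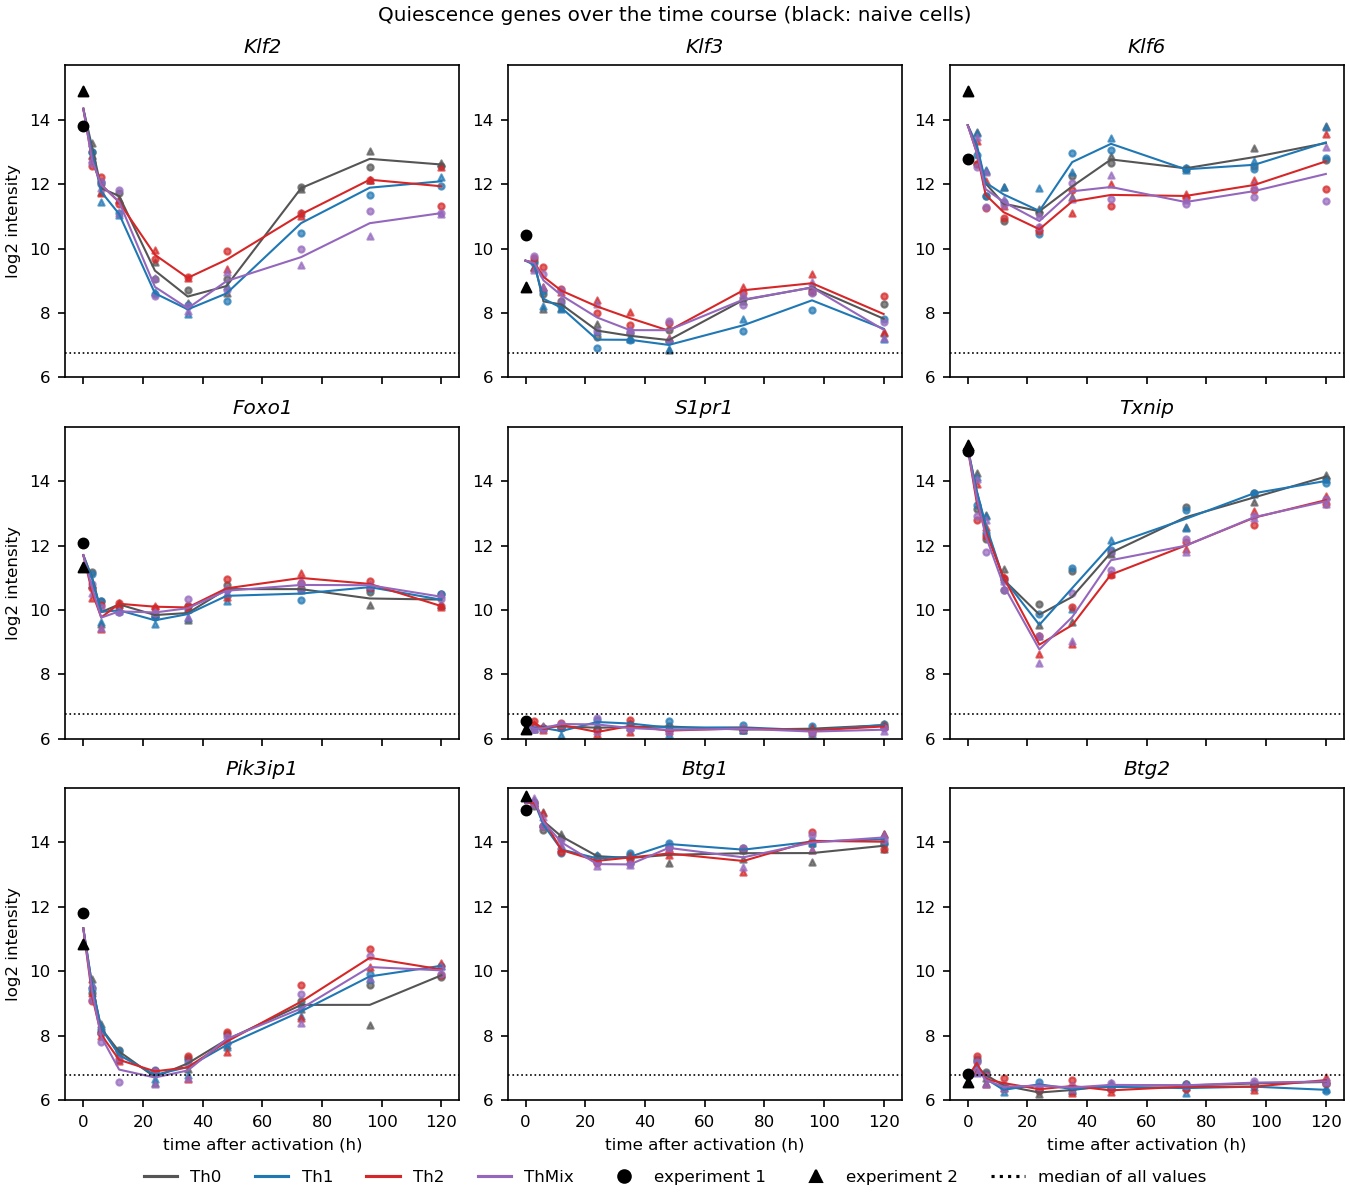
Log2 intensity (y axis) of the 9 genes against time after activation in hours (x axis), with a line for the mean of the 2 arrays of each culture, circles for experiment 1, triangles for experiment 2 and black symbols for naive cells; the dotted line is the median of all values. *Klf2* was lowest at 35 h, with 7.97 to 9.11 in the 8 arrays, *Txnip* and *Pik3ip1* at 24 h, while *S1pr1* lay under the dotted line throughout and *Btg2* from 12 h on.

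Between the low point and 120 h the genes parted. *Txnip*, *Pik3ip1* and *Klf2* rose in all 4 cultures and *Klf6* in Th0, Th1 and Th2 cells, whereas *Klf3*, *Foxo1*, *Btg1* and *Btg2* did not rise at least 2-fold in any. That made 4 of 8 genes called higher in Th0, Th1 and Th2 cells (6.34%, 7.35% and 7.09% of all genes) and 3 in ThMix cells (7.06%). This comparison of 120 h with 24 and 35 h takes no level from the naive arrays, which enter only the shared estimate of the spread.

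*Txnip* rose most, by 4.01 in Th0, 3.90 in Th1, 4.19 in Th2 and 4.10 in ThMix cells (SE 0.41), and the 8 arrays at 120 h lay between 13.28 and 14.20. Experiment 1 gave rises of 3.34 to 3.62 and experiment 2 of 4.45 to 4.75. *Pik3ip1* rose by 2.95 to 3.27 (SE 0.29) to between 9.84 and 10.24 at 120 h, a narrow range over the 4 cultures. *Klf2* rose by 3.70 in Th0 and 3.73 in Th1 cells, and by 2.49 in Th2 and 2.63 in ThMix cells (SE 0.27). The rises of these 3 genes kept their call in each of the 4 cultures under every alternative tried.

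*Klf6* rose by 1.73 in Th0 (adjusted p = 0.00328), 1.37 in Th1 (adjusted p = 0.0196) and 1.68 in Th2 cells (adjusted p = 0.00396), and its difference in ThMix cells was 1.00 (adjusted p = 0.0981), called with the experiment as a fixed block (adjusted p = 0.0266). At 120 h its 4 arrays of experiment 1 lay between 11.47 and 12.82 and the 4 of experiment 2 between 13.17 and 13.80, without overlap. Its calls were lost without experiment 2 in Th0 (1.09, adjusted p = 0.277) and Th2 cells (0.68, adjusted p = 0.541), and without either experiment in Th1 cells (1.65 and 1.09, adjusted p = 0.0721 and 0.277). With 35 h alone as the low point *Klf6* was called in no culture. *Btg1* was higher by 0.35 to 0.83 and *Foxo1* by 0.03 to 0.54. Without the 2-fold criterion, *Btg1* was called higher in Th1 (adjusted p = 0.0109), Th2 (adjusted p = 0.0145) and ThMix cells (adjusted p = 0.000222). *Foxo1* was then called in Th1 cells (adjusted p = 0.0413). The difference for *Klf3* was between -0.18 and 0.45, with 0.28 to 0.95 in experiment 1 and -0.82 to -0.05 in experiment 2.

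As a share of the fall on the log2 scale, *Txnip* regained 71.3% to 82.1%, *Pik3ip1* 66.9% to 73.8%, *Klf2* 44.8% (ThMix) to 68.1% (Th0) and *Klf6* 39.8% to 75.8%. *Btg1* regained 20.9% to 43.8%, *Foxo1* 1.81% (Th2) to 28.2% (Th1), and *Klf3* -9.35% to 19.96%. The share uses the low point and the naive mean of the same gene and carries the error of both. For *Klf6* in Th1 cells it was 103.8% within experiment 1 and 59.9% within experiment 2. That of *Pik3ip1*, with its low point at the dim end of the scale, was 58.0% to 65.1% and 77.1% to 85.0%. The lowest share of *Klf2* was in Th2 cells in experiment 1 (44.2%, ThMix 50.5%) and in ThMix cells in experiment 2 (39.8%, Th2 56.2%). For *Foxo1* the share also rested on the probe: the second probe regained 26.8% in Th2 cells and 23.2% to 34.0% over the 4 cultures. Between the low point and 120 h the 8 arrays of *Foxo1* had a median of 10.69 at 73 h, against 9.89 at 24 h and 10.24 at 120 h. The median of *Klf3* was 8.71 at 96 h, higher than at 48 h (7.21) or 120 h (7.57). Neither gene was tested between these later times.

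**Figure D3:**
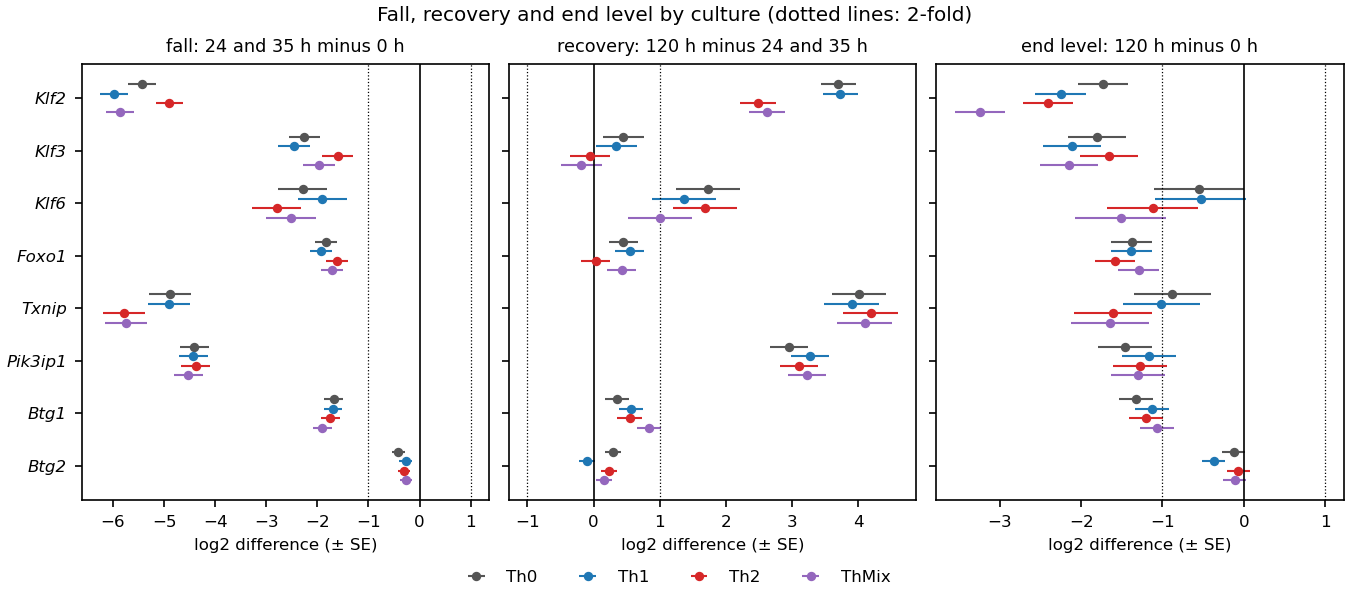
Log2 differences (x axes, with SE) of the 8 genes tested in the 4 cultures: the fall to 24 and 35 h, the recovery from there to 120 h, and the end level at 120 h against 0 h; dotted lines mark 2-fold. *Txnip* recovered by 3.90 to 4.19 in the 4 cultures, and *Klf2* by 3.70 and 3.73 in Th0 and Th1 cells against 2.49 and 2.63 in Th2 and ThMix cells.

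At 120 h most of the genes were still under their naive level. Compared with 0 h, 5 of 8 genes were called lower in Th0 (5.04% of all genes) and Th1 cells (5.12%), 6 in Th2 (6.06%) and 7 in ThMix cells (6.01%). *Klf2*, *Klf3*, *Foxo1*, *Pik3ip1* and *Btg1* were called in every culture. *Klf2* stood at -1.73 in Th0, -2.25 in Th1, -2.41 in Th2 and -3.24 in ThMix cells against 0 h (SE 0.31), the widest spread of end levels among cultures of the 8 genes. *Txnip* was called in Th2 (-1.61, adjusted p = 0.00589) and ThMix cells (-1.65, adjusted p = 0.00472). In Th0 it stood at -0.88 (adjusted p = 0.166), against -1.01 for Th1 (adjusted p = 0.0989), and both were called with the mean of 96 and 120 h as the end. *Klf6* was called in ThMix cells (-1.51, adjusted p = 0.0288), and in Th2 cells (-1.12, adjusted p = 0.12) with the experiment as a fixed block (adjusted p = 0.035). Without the naive array of experiment 1 *Pik3ip1* was called in no culture (-0.68 to -0.98, adjusted p from 0.0564 to 0.208), and without that of experiment 2 *Klf6* was not called in ThMix cells (-0.45, adjusted p = 0.657). The call of *Klf6* in ThMix cells was also lost without the ThMix arrays of experiment 1 (-0.66, adjusted p = 0.536), and that of *Txnip* in Th2 cells without the Th2 arrays of experiment 1 (-1.47, adjusted p = 0.0632). Further calls lost without 1 naive array were those of *Btg1* in Th1, Th2 and ThMix cells (-0.85 to -0.98), which fell short of 2-fold, of *Foxo1* in ThMix (-0.91) and of *Klf3* in Th2 cells (-0.85).

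Over 3 to 12 h, an F-test of limma on the mean of each culture called 0 of the 8 genes, a count near the 3.17% of all genes called, with 0 genes at an unadjusted p under 0.05 (0.094 for *Klf3* to 0.762 for *Txnip*). With experiment and time as a random block it again called 0, with an adjusted p of 0.0752 for *Klf3*. At 6 h *Klf3* was at 9.43 and 9.23 in Th2 and ThMix cells of experiment 1, against 8.59 and 8.68 in Th0 and Th1 cells. In experiment 2 the values were 8.83 and 8.81 against 8.13 and 8.21. The cultures given IL-4 were thus the higher ones for *Klf3* within each experiment at 6 h, and again at 12 h. For *Foxo1* they were the lower ones at 3 h, with 10.69 and 10.82 against 11.17 and 11.13 in experiment 1, and 10.38 and 10.52 against 10.81 and 10.79 in experiment 2. No test of single time points was made. Over 24 to 35 h the F-test called 1 (5.38%), *Klf2*, whose highest and lowest culture means differed by 1.09 (adjusted p = 0.00165). At 35 h *Klf2* was at 9.11 and 9.08 in Th2 cells, above the 6 other arrays, which lay between 7.97 and 8.72. At 24 h the Th2 arrays (9.67 and 9.96) were again above the others (8.54 to 9.57). With experiment and time as a random block, *Klf3* (adjusted p = 0.00165) and *Txnip* (adjusted p = 0.000241) were called too.

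From 73 to 120 h the cultures differed in 4 of the 8 genes, *Klf2* (adjusted p = 2.48e-10), *Klf6* (0.0214), *Txnip* (0.0218) and *Klf3* (0.0472), beside 29.2% of all genes. A count of 4 in 8 stands close to that background, and *Klf2* stood apart from the other 3 in how firmly it was called. The call of *Klf2* held under all 19 alternatives. Those of *Klf3*, *Klf6* and *Txnip* were lost under 10, 5 and 2 of 19.

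*Klf2* was highest in Th0 cells, with 6 arrays from 11.85 to 13.04 (median 12.56), and lowest in ThMix cells, from 9.49 to 11.18 (median 10.75), so that these groups did not overlap. Th1 cells (10.50 to 12.24, median 11.80) and Th2 cells (11.03 to 12.54, median 11.74) lay between them and overlapped. Against Th0, ThMix cells were lower by 1.88 (SE 0.18, adjusted p = 2.4e-11), Th1 by 0.83 (adjusted p = 0.00139) and Th2 by 0.71 (adjusted p = 0.00217). Against Th1 and Th2, ThMix cells were lower by 1.05 (adjusted p = 2.16e-05) and 1.17 (adjusted p = 1.12e-05). Th1 and Th2 cells differed by -0.12 (SE 0.18, adjusted p = 0.763). The gaps of ThMix cells from Th1 and Th2 cells were -0.61 and -0.77 in experiment 1 and -1.49 and -1.57 in experiment 2, and stayed called under every alternative. Those of Th1 and Th2 from Th0 cells were lost without the Th0 arrays of experiment 2 (adjusted p = 0.0645 and 0.055), without the Th1 arrays of experiment 1 (Th1, adjusted p = 0.18) and without the Th2 arrays of experiment 1 (Th2, adjusted p = 0.0883). With the window opened at 48 h, the gap between Th2 and Th0 cells was -0.33 (adjusted p = 0.129).

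*Klf6* and *Txnip* were both lower in Th2 and ThMix cells than in Th0 and Th1 cells in their means. *Klf6* had means of 12.88 in Th0, 12.79 in Th1, 12.11 in Th2 and 11.86 in ThMix cells, and the call was made for ThMix cells against Th0 (-1.02, adjusted p = 0.0164) and Th1 cells (-0.94, adjusted p = 0.0425). *Txnip* had means of 13.51, 13.49, 12.76 and 12.75 in the same order, and was called lower in Th2 (-0.75, adjusted p = 0.0402) and ThMix cells (-0.76, adjusted p = 0.0409) against Th0. With 73, 96 and 120 h pooled, the arrays overlapped between all 4 cultures for both genes. At each time the 4 *Txnip* arrays of Th0 and Th1 cells lay above the 4 of Th2 and ThMix cells. They spanned 12.55 to 13.19 against 11.80 to 12.20 at 73 h and 13.36 to 13.64 against 12.65 to 13.09 at 96 h. At 120 h they spanned 13.94 to 14.20 against 13.28 to 13.55. *Klf6* was split likewise at 73 h (12.43 to 12.51 against 11.40 to 11.70) and 96 h (12.48 to 13.12 against 11.60 to 12.14). At 120 h *Klf6* was split so within each experiment but not across them. Single time points were not tested. *Klf3* was lowest in Th1 cells (mean 7.85), lower by 0.69 than in Th2 cells (adjusted p = 0.0117). *Pik3ip1* was called in Th2 against Th0 cells (0.58, adjusted p = 0.0201), with 8.33 and 9.58 in the 2 Th0 arrays at 96 h, the lower one from experiment 2. These pairwise calls of *Txnip*, *Klf6*, *Klf3* and *Pik3ip1* were each lost when 1 experiment of a culture was left out, with adjusted p as high as 0.21, 0.464, 0.129 and 0.353.

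By pairs of cultures the calls numbered 1 in Th1 against Th0 (6.25% of all genes), 3 in Th2 against Th0 (24.9%), 3 in ThMix against Th0 (22.6%), 1 in Th1 against Th2 (20.0%), 2 in ThMix against Th1 (14.2%) and 1 in ThMix against Th2 cells (4.03%). A Th0 array at 96 h and a ThMix array at 12 h were set apart from their partners, with 413 and 329 genes differing at least 2-fold. Without these 2 arrays, *Klf2* was the only gene still called in Th2 and ThMix against Th0 cells: *Klf6* stood at -0.93 in ThMix cells (adjusted p = 0.0587), *Txnip* at -0.79 and -0.80 (adjusted p = 0.0551 and 0.0566) and *Pik3ip1* at 0.37 (adjusted p = 0.161). With experiment and time as a random block, which uses the agreement of cultures measured together, the calls rose to 2 in Th1 against Th0, 4 in Th2 against Th0, 4 in ThMix against Th0, 3 in Th1 against Th2 and 4 in ThMix against Th1 cells, and to 5 in the test across cultures from 73 to 120 h. *Pik3ip1* was then called in ThMix against Th0 cells (0.41, adjusted p = 0.0214) and across the cultures (adjusted p = 0.00504). A fixed block for the experiment gave 2 in Th1 against Th2 cells, adding *Klf6* (0.68, adjusted p = 0.0435), and 4 in Th2 against Th0 cells, adding *Klf6* (-0.76, adjusted p = 0.0172). *Foxo1*, *Btg1* and *Btg2* were called in no comparison of cultures.

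**Figure D4:**
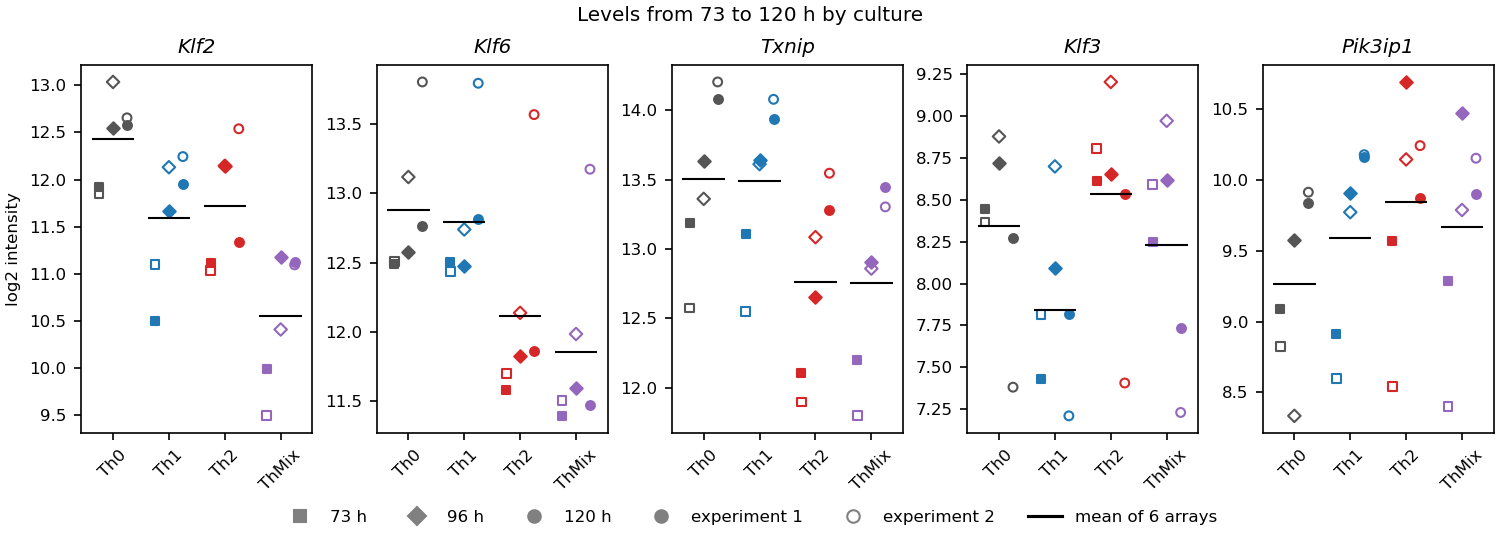
Log2 intensity (y axes) of *Klf2*, *Klf6*, *Txnip*, *Klf3* and *Pik3ip1* in the arrays at 73 h (squares), 96 h (diamonds) and 120 h (circles) of each culture, filled for experiment 1 and open for experiment 2, with a line at the mean of 6 arrays. *Klf2* lay between 11.85 and 13.04 in Th0 cells and between 9.49 and 11.18 in ThMix cells.

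The rise of *Klf2* after the low point itself differed between cultures (highest less lowest 1.24, adjusted p = 0.0273), the 1 gene of 8 called in that test (6.20% of all genes). Within experiment 1 the rises were 3.69, 3.52, 1.95 and 2.74 in Th0, Th1, Th2 and ThMix cells, and within experiment 2 3.71, 3.93, 3.02 and 2.51. The call was lost in 6 of the leave-one-out fits, with adjusted p up to 0.166 (without the Th0 or Th1 arrays of either experiment, the Th2 arrays of experiment 1 or the ThMix arrays of experiment 2), and with 24 h or 35 h alone as the low point (adjusted p = 0.0933 and 0.145).

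Across the 37 condition means, *Txnip* and *Pik3ip1* had the most similar courses of any pair of the 8 genes tested (Pearson r = 0.912), followed by *Btg1* and *Btg2* (0.864), *Klf6* and *Txnip* (0.818) and *Klf2* and *Klf3* (0.806). *Klf3* and *Klf6* were least alike (0.22). *Btg2* was at the level of dim probes from 12 h on, so its values here rest largely on the earliest times. These values are descriptions, since the means share arrays, cultures and the naive condition. Among all genes, *Tnrc6c* (0.946), *Pias1* (0.941), *Crtc3* (0.929), *Taok1* (0.928) and *Chkb* (0.924) ran closest to *Klf2*. Those closest to *Foxo1* were *C330013E15Rik* (0.884), *Pnrc2* (0.863), *Kcnip2* (0.849), *Pdcd4* (0.844) and *Zfp810* (0.843). *Klf6* ran closest to *Ddx58* (0.854), *Snx14* (0.848), *Tmbim6* (0.845), *Sp100* (0.842) and *Smpdl3a* (0.838).

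Related genes, in lists chosen with earlier results known, were described by counts, with the fall and the recovery given as means of the 4 cultures. Their counts stand beside 8.81% to 9.45% of all genes called lower and 10.3% to 10.8% called higher at 24 and 35 h, and 6.34% to 7.35% called higher in the recovery. Among genes known as FOXO1 or KLF2 targets in T cells, 19 of 21 were tested, and 9 to 11 were called lower at 24 and 35 h and 12 to 14 higher at 120 h than at the low point, depending on the culture. The median fall of the list was -1.10 and its median recovery 1.26, against 0.04 and -0.02 for all genes. Each median was taken on its own, and some genes called higher at 120 h had not been called lower before. The medians and counts thus give no share of the fall regained. *Il7r*, the IL-7 receptor gene, fell by 4.82 and rose by 3.00, *Itgb7*, an integrin subunit of gut homing, fell by 3.52 and rose by 2.18, and *Sesn1*, a stress-response gene, fell by 3.03 and rose by 1.30. *Cdkn1a*, which encodes a cell-cycle inhibitor, was the only one of the list called higher at 24 and 35 h (3.48, in all 4 cultures). From there to 120 h *Cdkn1a* rose further by 2.30, called in 3 cultures.

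Most of the other Krüppel-like factors were not called lower, and whether their probes were bright enough to show a fall was not examined. Of 10 tested, 2 were called lower, *Klf13* (-2.66) and *Klf7* (-1.61), in every culture and none higher, and the median of the list was -0.002. *Klf4* (-0.85) and *Klf16* (0.70) were not called. After the low point 2 or 3 were called higher, *Klf7* in all 4 cultures (1.46), *Klf13* in 3 (1.32) and *Klf9*, named here for its value, in 4 (1.93, with -0.41 in the fall). In the FOXO family and its PI3K and AKT branch, 4 of 15 genes were called lower in each culture: *Sgk1*, a kinase that phosphorylates FOXO proteins (-4.99), *Pik3r1* and *Pik3cd*, subunits of PI3K (-1.96 and -1.92), and *Tsc1*, which restrains mTORC1 (-1.19). *Sgk1* and *Pik3cd* were called higher again in all 4 cultures, *Sgk1* by 3.65.

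Of 9 genes tested of the S1P axis, 3 were called lower in Th0 and Th1 and 2 in Th2 and ThMix cells. They were the receptor gene *S1pr4* (-1.53), *Sgpp1*, an S1P phosphatase (-1.17), and *Gnai2*, a G protein subunit (-0.87, called in 2 cultures). *S1pr4* rose again by 1.33, called in every culture. *Sphk2*, an S1P-making kinase, stood at -0.42. In the list of 12 genes around the BTG and TOB family and CCR4-NOT, *Tob1* (-1.82) was called lower in each culture. *Tardbp* (-1.18), listed there but part of neither group, was called lower in each culture too. *Cnot6l* (-0.76) and *Btg4* (0.59) were under 2-fold.

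Around *Txnip*, 3 or 4 of 12 arrestin-domain, thioredoxin and glucose transport genes were called higher at 24 and 35 h, where 10.3% to 10.8% of all genes were, and 1 or 2 lower. *Txn1* and *Txn2*, the thioredoxins, were higher by 2.71 and 1.20, and the glucose transporter gene *Slc2a1* by 1.36. *Mlxip*, which encodes MondoA, a factor that drives *Txnip* with its partner MLX, stood at -1.53. Of 15 other quiescence genes, 7 or 8 were called lower, and *Cblb*, an E3 ligase gene named here for its value, was called higher in 1 culture, Th2. Those with the deepest falls were *Dgka*, a diacylglycerol kinase (-3.43), the phosphatase gene *Dusp1* (-3.26), the IL-6 receptor gene *Il6ra* (-3.11) and *Tob1*. *Dgka* and *Dusp1* rose again by 1.78 and 2.72, called in all 4 cultures, whereas the 0.26 of *Il6ra* was called in none. *Dusp1* was at 12.22 and 14.88 in the naive arrays, so its fall carried the same gap between experiments as that of *Klf6*.

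**Figure D5:**
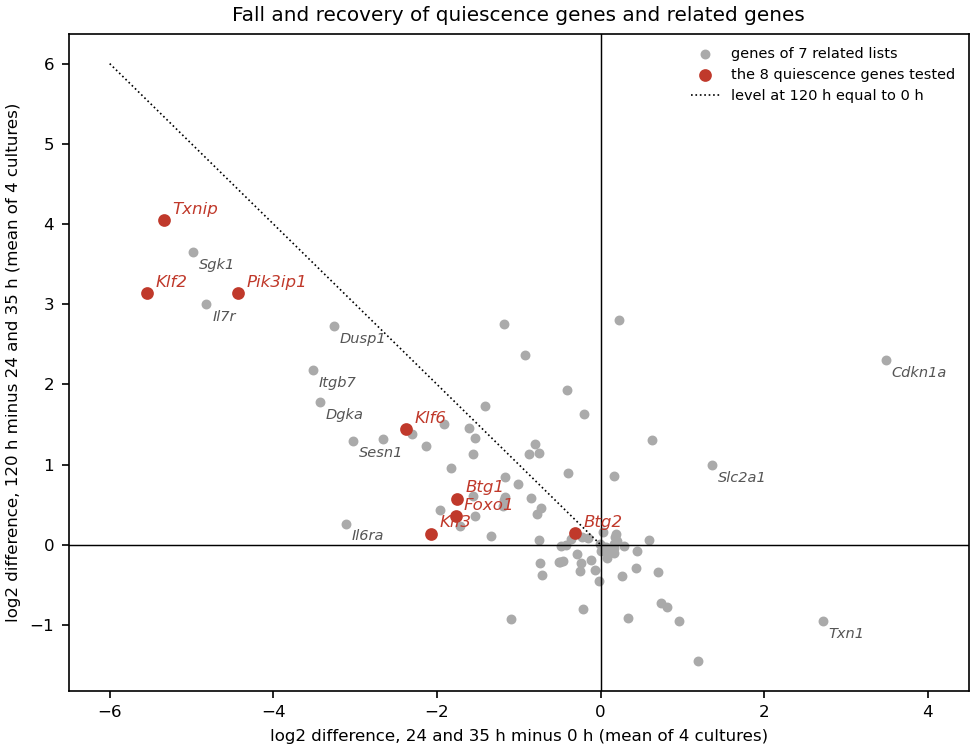
Recovery (y axis, log2 difference of 120 h from 24 and 35 h) against fall (x axis, log2 difference of 24 and 35 h from 0 h), each the mean of 4 cultures, for the 8 genes tested (red) and the genes of 7 related lists (grey); on the dotted line the level at 120 h equals that at 0 h, and both axes share the arrays at 24 and 35 h. *Sgk1* (-4.99 and 3.65) and *Il7r* (-4.82 and 3.00) lay near *Klf2*, *Txnip* and *Pik3ip1*, while *Il6ra* fell by 3.11 and rose by 0.26.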

How the data were processed

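Levels were measured on Illumina Mouse Sentrix-6 arrays in 74 samples. The deposited values were linear intensities that the authors had already background-corrected and quantile-normalized, per the methods (array medians 107 to 111, lowest value 55.8, highest 69892); the software was not given in the sources used here. Log2 was taken of the deposited intensities, with no further normalization. Of 45135 probes, 34773 carried 1 gene symbol, 18 several and 10344 none. Probes were kept if their mean in at least 1 condition was above the median of all values (6.77), which left 23115 probes, and the probe with the highest mean stood for each of 13817 genes. A model with 1 mean per condition was fitted to all arrays with limma 3.58.1 in R 4.3.3 (37 residual degrees of freedom), with Benjamini-Hochberg adjustment over all genes in each comparison. Differences over time were called at adjusted p under 0.05 and at least 2-fold, differences between cultures at adjusted p under 0.05. The number of arrays limits the precision: the median residual SD was 0.15.

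The replicate number was taken as the experiment. Deviations of conditions of the same time point correlated within an experiment (median r = 0.536 over 54 pairs, 0.0866 over 612 pairs at different time points), so blocked fits were tried beside other normalization, probe choice, filters, time windows, fold criteria and leave-one-out fits. The members and lists were chosen with earlier results of these data known. Named genes were the 9 members, the 5 genes most correlated with *Klf2*, *Foxo1* and *Klf6*, and in each related list at most 4 with the largest absolute fall. *Klf9*, *Cblb*, *Fos*, *Cd69*, *Egr2*, *Nr4a1*, *Il2ra* and *Myc* were named after their values were seen, and the cell markers as checks of the samples.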

Additional observations from a re-analysis of the deposited data

Results flagged for a closer look

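The fall of *Klf2* to 24 and 35 h differed between the cultures, with 1.09 on the log2 scale between the deepest fall (Th1) and the shallowest (Th2), by an F-test of the difference itself (limma, adjusted p = 0.00165). The rise of *Klf2* from there to 120 h also differed, with 1.24 between the largest (Th1, 3.73) and the smallest (Th2, 2.49) and an adjusted p of 0.0273. Both tests share the arrays at 24 and 35 h, so the shallower fall and the smaller rise in Th2 cells are not separate observations. The rise in ThMix cells was likewise small (2.63), although the fall there was among the deeper ones (-5.87). The first difference stayed called under all 18 alternatives and the second under 13 of 21.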

How the results depend on the processing

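No call of a gene turned its direction under any alternative; of the results for single genes under the alternatives, 4163 kept their side of the threshold, 112 lost and 67 gained a call. Of the counts, 223 of 260 leave-one-out values and 270 of 286 values under other settings stayed within 1.5 times. The 1 gene called in Th1 against Th2 from 73 to 120 h became 2 with normexp and quantile normalization, the mean of all probes, a filter at the upper quartile, a variance trend or the fixed replicate block, and 3 with the random replicate block or a window from 48 h. With the random replicate block, 3 genes were called over 24 to 35 h, 2 in Th1 against Th0 and 4 in ThMix against Th1. ThMix against Th1 gave 1 without the filter. Without the 2 arrays that stood apart, 2 genes differed among the cultures from 73 to 120 h, 1 in Th2 against Th0 and 1 in ThMix against Th0. The test of the recovery among cultures called 0 with 24 h or with 35 h alone. The cause of these shifts was not tested. Leave-one-out counts ranged from 1 to 2 over 24 to 35 h, 1 to 4 from 73 to 120 h, 0 to 1 for the recovery among cultures, 1 to 3 at 3 h in Th0, 3 to 5 for the end level in Th1, and, from 73 to 120 h, 0 to 1 in Th1 against Th0, 0 to 3 in Th2 against Th0, 1 to 3 in ThMix against Th0, 0 to 2 in Th1 against Th2 and 1 to 2 in ThMix against Th1. In leave-one-out fits the lone arrays were assumed to vary like the other groups. The fixed block also gave 7 in place of 6 for the end level in Th2 and 4 in place of 3 for the recovery in ThMix cells, and 4 in place of 3 in Th2 against Th0, and changed no other call count. Signal over background limited *S1pr1*, *Btg2* and the low point of *Pik3ip1*.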
